A study of Mus musculus with 12 samples.

Results

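The potassium channel genes are the mouse genes whose symbol is Kcn, then letters, a number and at most 1 further letter, so that pore-forming subunits and their auxiliary subunits are included. Of the 41388 genes in the deposited tables, 93 met this rule, which used no measured value. They were followed through RNA sequencing of mouse brain cells in 12 libraries from 8 mice. All mice carried the Bmal fl/fl alleles, in which the gene for the clock transcription factor BMAL1 is flanked by loxP sites, on a C57BL/6 background, and the line also holds ALDH1L1-CreERT2, a tamoxifen-inducible Cre recombinase driven from an astrocyte promoter. Mice positive for Cre are labelled KO and mice negative for Cre are labelled WT. At 2 months of age both were dosed orally with tamoxifen (2 mg daily over 5 days), and their brains were taken at 20 months. After collagenase digestion, cells that bound beads against the astrocyte surface antigen ACSA-2 gave the astrocyte libraries (4 KO and 4 WT mice), and the unbound remainder gave the flowthrough libraries (2 KO and 2 WT of the same mice).

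Potassium channels let potassium leave or enter cells and so set the resting potential and the shape of electrical signals. In the brain, voltage-gated channels repolarise neurons after each action potential, while the inward rectifiers and two-pore (leak) channels of astrocytes hold a negative resting potential and take up the potassium that active neurons release. Calcium-activated channels link the membrane potential to intracellular calcium, silent subunits modify partner subunits without forming channels alone, and auxiliary subunits change gating or trafficking. Choroid plexus epithelium, microglia and vascular cells each use channels of their own.

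Each library held between 38.7 M and 51.6 M counted reads (M for mega-reads), and the potassium channel genes took 0.137% to 0.157% of them in astrocyte libraries and 0.0907% to 0.117% in flowthrough. Arntl, which encodes BMAL1, was not lower in the KO label. It had 401, 428, 645 and 628 raw counts in KO astrocytes against 360, 239, 242 and 374 in WT astrocytes. Every KO astrocyte library was thus above every WT astrocyte library in raw counts. In flowthrough it had 261 and 284 against 292 and 217, with overlap. The count covers all exons of the gene, so whether it can see the deletion is not known, and KO and WT below mean the libraries so labelled. All 14 astrocyte markers listed were higher in the astrocyte libraries (median log2 fold change 1.93), and so were all 11 neuron markers (median 1.62). All 12 microglia, 9 endothelial, 5 choroid plexus and 6 lymphocyte markers were lower there (medians -3.55, -1.09, -2.37 and -4.97), as were 3 of 8 mural markers. None of the 4 ependymal markers passed, and 5 of 10 oligodendrocyte and 4 of 5 oligodendrocyte precursor markers were higher. Choroid plexus markers still summed to 1784 to 9245 CPM (counts scaled to library size, here with TMM factors) in astrocyte libraries, against 19145 to 39921 in flowthrough. Of these markers, only the lymphocyte genes Cd3g and Ms4a1 were at 0 in any library, 1 each. Among astrocyte libraries, KO 73 was lowest in the astrocyte and neuron sums and highest in the choroid plexus and microglia sums. KO flowthrough 60 had an astrocyte marker sum of 10404 CPM against 3571 to 5196 in the other flowthrough libraries. KO 73 and WT 78 had 2411 and 1133 counts of Xist and 3 and 1 of the Y-linked Ddx3y, while the other 10 libraries had 0 to 10 and 2176 to 4970. The flowthrough libraries therefore hold no library of the Xist type.

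Promoter windows are shown for 2 pairs of neighbouring genes and for Kcnab1. Kcnj10 and Kcnj9 lie 11947 bases apart on chromosome 1 and point away from each other, and both were higher in astrocytes. Kcnj16 and Kcnj2 lie 38196 bases apart on chromosome 11, point the same way, and differed between the fractions in opposite directions. Kcnab1 is shown because 2 of its annotated starts hold CACGTG, the palindromic E-box core that BMAL1 with CLOCK is known to bind. Another Kcnab1 window and other Kcnj16 windows, all without CACGTG, are not printed. Each sequence is the RefSeq GRCm38.p6 window from 250 bases before to 50 after an annotated start, 5′ to 3′ on the gene's strand, in lower case with CACGTG in capitals:
Kcnj10 (chr1:172340960-172341259, plus strand): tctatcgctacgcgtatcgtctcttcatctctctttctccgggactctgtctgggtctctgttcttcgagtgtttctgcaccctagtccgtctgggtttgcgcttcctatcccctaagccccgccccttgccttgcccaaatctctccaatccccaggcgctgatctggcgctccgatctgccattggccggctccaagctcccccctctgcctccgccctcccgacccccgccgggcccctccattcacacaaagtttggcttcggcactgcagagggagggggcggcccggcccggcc
Kcnj9 (chr1:172329273-172329572, minus strand): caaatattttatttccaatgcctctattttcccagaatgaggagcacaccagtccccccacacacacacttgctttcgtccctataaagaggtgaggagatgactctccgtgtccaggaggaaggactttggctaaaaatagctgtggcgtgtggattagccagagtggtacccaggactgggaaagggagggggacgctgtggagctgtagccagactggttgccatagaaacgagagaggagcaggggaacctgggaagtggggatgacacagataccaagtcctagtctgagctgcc
Kcnj16 (chr11:110967783-110968082, plus strand): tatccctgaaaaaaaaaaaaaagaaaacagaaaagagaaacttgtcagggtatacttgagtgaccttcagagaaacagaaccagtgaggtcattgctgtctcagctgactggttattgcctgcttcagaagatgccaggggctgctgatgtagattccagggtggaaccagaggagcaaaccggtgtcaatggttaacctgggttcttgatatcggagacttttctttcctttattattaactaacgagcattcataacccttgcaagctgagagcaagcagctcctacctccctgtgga
Kcnj2 (chr11:111065914-111066213, plus strand): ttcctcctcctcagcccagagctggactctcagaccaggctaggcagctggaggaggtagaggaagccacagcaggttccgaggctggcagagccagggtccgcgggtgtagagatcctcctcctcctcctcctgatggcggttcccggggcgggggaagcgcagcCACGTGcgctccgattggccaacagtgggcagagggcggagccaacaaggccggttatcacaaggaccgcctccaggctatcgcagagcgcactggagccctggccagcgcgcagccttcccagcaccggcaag
Kcnab1 (chr3:65108764-65109063, plus strand): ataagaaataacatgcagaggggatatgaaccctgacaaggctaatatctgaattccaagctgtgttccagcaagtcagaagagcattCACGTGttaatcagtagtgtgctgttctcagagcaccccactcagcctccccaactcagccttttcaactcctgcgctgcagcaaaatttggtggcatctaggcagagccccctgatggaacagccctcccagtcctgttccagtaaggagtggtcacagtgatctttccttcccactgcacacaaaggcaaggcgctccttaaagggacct
Kcnab1 (chr3:65187853-65188152, plus strand): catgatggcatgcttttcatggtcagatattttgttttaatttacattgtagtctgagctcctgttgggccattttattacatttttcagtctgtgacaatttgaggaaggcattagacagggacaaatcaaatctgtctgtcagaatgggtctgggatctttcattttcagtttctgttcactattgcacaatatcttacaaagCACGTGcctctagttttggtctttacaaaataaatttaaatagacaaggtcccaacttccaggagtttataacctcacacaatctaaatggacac
Both strands of CACGTG read alike, so 1 search covered them. The motif was present in 6 of the 68 potassium channel genes with a window (8.82%), against 8.09% of 27025 genes in the same table. The 6 were Kcnab1 (first base 162 and 45 bases before a start), Kcnj2 (84 before), Kcnh4 (87 before), Kcnn4 (133 before), Kcne4 (54 before) and Kcnk5 (26 after). Kcnj10 and Kcnj2 windows were richer in G and C (63.7% and 66.7%) than Kcnj9 and the Kcnj16 window shown (52.3% and 44.3%), with a median of 58.0% over the windows of these genes and 52.7% over all windows. A match describes letters in a window only.

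The first comparison asked which potassium channel genes differ between captured astrocytes and the cells left behind. Kcnj10 and Kcnj16, the pair of inward rectifier subunits known for potassium uptake in astrocytes, were the most abundant of these genes in astrocyte libraries. Both were over 3 times as high there as in flowthrough. Kcnj13 and Kcne2, known from choroid plexus epithelium, were the most abundant in flowthrough and were lower in astrocyte libraries. Of the 86 genes that passed the filter on low counts, 61 were called at an adjusted p under 0.05 by edgeR's quasi-likelihood test (70.9%), 52 higher and 9 lower in astrocytes, against 49.2% of all 20997 genes tested. The share called higher was 60.5%, against 24.8% of all genes, and the share called lower 10.5%, against 24.4%. The median log2 fold change, astrocytes minus flowthrough, was 1.17, against 0.00 over all genes, and 58 of the 61 differed at least 2-fold. In 37 of the 86 (43.0%) the libraries of the fractions did not overlap, 30 higher and 7 lower, against 29.2% of all genes. In bulk libraries, fewer cells of a type and less RNA per cell cannot be told apart. Neuron, astrocyte, microglia and choroid plexus markers moved with these differences as given above, and their part in them was not tested.

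Levels between genes are compared as TMM-scaled CPM per kilobase of summed exon length (RPKM). Values are listed in the order of mice 60, 62, 73 and 132 for KO astrocytes, 56, 57, 64 and 78 for WT astrocytes, 60 and 132 for KO flowthrough and 56 and 64 for WT flowthrough. Means are over 8 astrocyte or 4 flowthrough libraries, ± SD. By mean, 8 genes reached 10 RPKM in astrocyte libraries and 7 in flowthrough, and 44 and 31 reached 1 RPKM. The order in astrocytes was Kcnj10 (47.5 ± 6.8), Kcnj16 (43.0 ± 8.4), Kcnab2 (39.6 ± 9.5), Kcnip3 (34.9 ± 9.5), Kcnk1 (32.4 ± 5.6), Kcne1l (27.8 ± 13), Kcnj13 (26.1 ± 15), Kcne2 (12.4 ± 6.3), Kcnd2 (7.79 ± 2.2) and Kcnk3 (6.09 ± 1.5). The mean ± SD ranges of neighbours in this order overlapped. In flowthrough the order was Kcnj13 (159 ± 47), Kcne2 (70.0 ± 15), Kcnk1 (23.0 ± 5.4) and Kcnj10 (15.0 ± 6.6). Next came Kcnab2 (14.7 ± 8.4), Kcnj16 (13.3 ± 4.6), Kcnip3 (11.9 ± 3.5) and Kcne1l (7.59 ± 6.8). Kcnmb1 (6.72 ± 2.2) and Kcnj8 (6.62 ± 1.5) followed. There the mean ± SD ranges of Kcnj13, Kcne2 and Kcnk1 did not overlap each other, and those of neighbours from Kcnk1 downward did. Summed over all 93 genes the level was 345 to 436 RPKM in astrocytes and 338 to 465 in flowthrough. Kcnj10 and Kcnj16 together made up 18.1% to 25.3% of that sum in astrocytes and 4.92% to 11.5% in flowthrough.

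**Figure D1:**
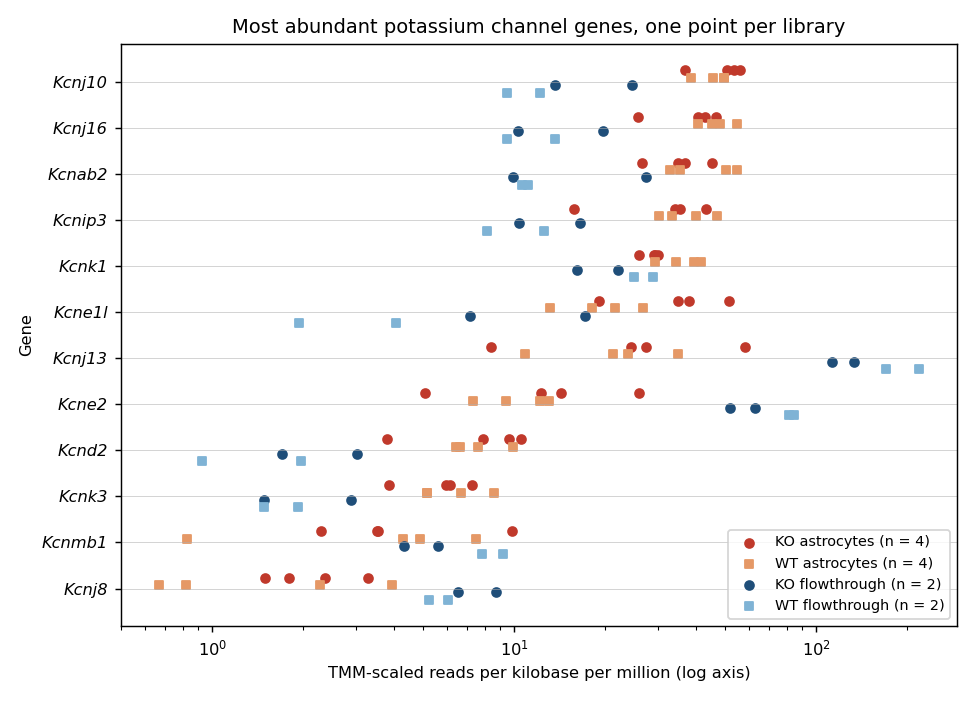
TMM-scaled RPKM on a log axis for the 12 genes among the 10 most abundant of either fraction, one point per library, coloured by group. Kcnj10 and Kcnj16 lie between 25.7 and 55.9 in astrocyte libraries and between 9.45 and 24.6 in flowthrough, while Kcnj13 and Kcne2 are higher in every flowthrough library than in any astrocyte library.

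Inward rectifiers conduct potassium inward more readily than outward. Of the 14 tested Kcnj genes, 6 were called higher in astrocytes (42.9%) and 3 lower (21.4%), with a median log2 fold change of 0.96. Over all genes 24.8% were called higher and 24.4% lower, the latter near the share here. Kcnj10 (Kir4.1; chromosome 1, 172341210 to 172374085, GRCm38) had 55.9, 50.6, 36.8 and 53.4 RPKM in KO astrocytes and 38.6, 49.5, 49.7 and 45.6 in WT astrocytes. In flowthrough it had 24.6 and 13.6 in KO and 12.2 and 9.45 in WT. Every astrocyte library was above every flowthrough library, and KO flowthrough 60 was the highest of the latter (log2 fold change 1.72 ± 0.19 SE, adjusted p = 4.3e-05).

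Kcnj16, whose product pairs with that of Kcnj10 (chromosome 11, 110968033 to 111027968), had 46.5, 42.8, 25.7 and 40.5 RPKM in KO astrocytes and 45.1, 48.1, 40.7 and 54.8 in WT astrocytes. Flowthrough held 19.6 and 10.3 in KO and 13.7 and 9.49 in WT. The fractions did not overlap, and KO 73 was the lowest astrocyte library (log2 fold change 1.70 ± 0.22, adjusted p = 0.000121). Kcnj9, a G protein-gated subunit of neurons and the neighbour of Kcnj10, was at 3.55 ± 0.77 against 1.20 ± 0.48 RPKM (1.62 ± 0.22, adjusted p = 0.000162). Kcnj3, another G protein-gated subunit, was at 1.80 ± 0.54 against 0.526 ± 0.30 RPKM (1.82 ± 0.36, adjusted p = 0.00155), and Kcnj11 and Kcnj12 were also called higher, the latter not with the mouse as a block (adjusted p = 0.0780).

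Kcnj13 (Kir7.1; chromosome 1, 87386363 to 87394729), an apical channel of choroid plexus epithelium, had 27.2, 8.39, 58.0 and 24.4 RPKM in KO astrocytes and 34.8, 21.3, 23.8 and 10.9 in WT astrocytes. It reached 113 and 133 RPKM in KO flowthrough and 220 and 170 in WT flowthrough. The fractions did not overlap (log2 fold change -2.58 ± 0.39, adjusted p = 0.000345). Among astrocyte libraries KO 73 was highest and KO 62 lowest, as for the choroid plexus marker sum. Most of that sum was Ttr (1741 of 1784 CPM in KO 62 and 9095 of 9245 in KO 73). Kl and Clic6 had the same ends, but Folr1 was lowest in WT 78, and Aqp1 was lowest in WT 57 and highest in KO 132. In flowthrough both Kcnj13 and the sum were lowest in KO 60, but Kcnj13 was highest in WT 56 and the sum in WT 64. The exons of Kcnj13 share 49.1% of their length with Gigyf2 on the other strand, which was at a mean of 40.9 CPM in astrocytes and 44.9 in flowthrough. Since Kcnj13 belongs to the class, the summed level of the inward rectifiers was higher in flowthrough (171 to 257 RPKM) than in astrocytes (115 to 143).

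Kcnj2, a classical inward rectifier of vessels, muscle and microglia, had 0.318, 0.544, 0.901 and 0.716 RPKM in KO astrocytes and 0.618, 0.502, 0.839 and 0.329 in WT astrocytes. It had 2.00 and 2.01 in KO and 1.78 and 2.01 in WT flowthrough, all above the astrocyte libraries (log2 fold change -1.71 ± 0.27, adjusted p = 0.00043). Its neighbour Kcnj16 was higher in astrocytes, as given above. Kcnj8, the pore subunit of the ATP-sensitive channel of mural cells, was at 2.08 ± 1.1 against 6.62 ± 1.5 RPKM (-1.66 ± 0.40, adjusted p = 0.00523). Abcc9, its sulfonylurea receptor partner, was lower by a similar amount (-1.85 ± 0.27, adjusted p = 0.000259).

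Two-pore channels carry leak currents. Of 12 tested Kcnk genes, 6 were called higher in astrocytes (50%) and 3 lower (25%), the latter near the 24.4% of all genes (median 0.35). Kcnk1 (TWIK-1), one of the leak channels known in astrocytes, had 29.9, 25.9, 29.2 and 29.1 RPKM in KO astrocytes and 39.4, 34.5, 29.3 and 41.6 in WT astrocytes. Flowthrough held 22.0 and 16.2 in KO and 28.9 and 24.9 in WT, so the fractions overlapped. Of the 10 most abundant genes in astrocytes, it had the difference nearest to 0 (log2 fold change 0.51 ± 0.13, adjusted p = 0.00605).

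Kcnk2 (TREK-1), a leak channel gated by stretch and lipids, was at 5.97 ± 0.85 against 2.65 ± 1.1 RPKM (1.17 ± 0.25, adjusted p = 0.00241). Kcnk10 (TREK-2), its relative and also known in astrocytes, was at 1.84 ± 0.55 against 0.520 ± 0.095 RPKM (1.82 ± 0.27, adjusted p = 0.000297). Kcnk3 (TASK-1), an acid-sensitive leak channel, was at 6.09 ± 1.5 against 1.94 ± 0.66 RPKM (1.66 ± 0.24, adjusted p = 0.00028). In all 3 genes every astrocyte library was above every flowthrough library.

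Kcnk6 (TWIK-2), known in macrophages and microglia, was the two-pore gene with the smallest p among those lower in astrocytes. It had 0.319, 0.342, 0.875 and 0.414 RPKM in KO astrocytes and 0.358, 0.235, 0.616 and 0.184 in WT astrocytes. It had 4.18, 5.78, 4.11 and 4.78 in the flowthrough libraries, far above all astrocyte libraries (-3.51 ± 0.33, adjusted p = 2.18e-05). Kcnk13 (THIK-1), the leak channel of microglia, was at 1.45 ± 0.95 against 3.70 ± 0.83 RPKM, and KO astrocyte 73 at 3.56 lay within the flowthrough range (-1.38 ± 0.38, adjusted p = 0.0103). This call was lost without KO flowthrough 132 (adjusted p = 0.0537). Kcnk18 was also called lower, but on counts of 0 in 7 astrocyte libraries, 4 in WT 56, and 1, 12, 19 and 12 in flowthrough. Kcnk9 was called higher on 3 to 14 counts in astrocytes and 0 to 4 in flowthrough. The microglia marker sum was 648 to 3095 CPM in astrocytes and 12017 to 18718 in flowthrough.

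Voltage-gated pore-forming genes (median 1.24) were called higher in astrocytes in 17 of 28 cases (60.7%) and lower in 1 (3.57%). Over all genes these shares were 24.8% and 24.4%. All 4 Kcnc genes, the fast delayed rectifiers of rapidly firing neurons, were called higher with no overlap between the fractions. Kcnc1 had 2.16, 1.38, 0.934 and 2.15 RPKM in KO and 1.47, 2.61, 1.80 and 2.03 in WT astrocytes. It had 0.807 and 0.390 in KO and 0.450 and 0.311 in WT flowthrough, below every astrocyte library (log2 fold change 1.92 ± 0.30, adjusted p = 0.000381).

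Kcna1, a channel of the juxtaparanodes of myelinated axons, was at 4.45 ± 0.87 against 1.53 ± 0.58 RPKM (1.57 ± 0.22, adjusted p = 0.000228). Kcna2, its frequent partner there, was at 0.779 ± 0.40 against 0.276 ± 0.31 RPKM (1.78 ± 0.55, adjusted p = 0.0196), a call that was lost without KO flowthrough 132 (adjusted p = 0.0715) or WT flowthrough 64 (adjusted p = 0.0921). Kcna3, known in activated microglia and lymphocytes, was not called (0.39 ± 0.41, adjusted p = 0.452).

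The Kcnd genes encode A-type channels. Kcnd2 had 10.5, 9.62, 3.80 and 7.87 RPKM in KO astrocytes and 6.60, 9.94, 6.42 and 7.57 in WT astrocytes. It had 3.01 and 1.70 in KO and 1.96 and 0.923 in WT flowthrough, with no overlap (2.08 ± 0.32, adjusted p = 0.000354). Kcnd1 was the voltage-gated gene called lower, at 0.876 ± 0.22 in astrocytes against 3.18 ± 0.71 RPKM in flowthrough, again with no overlap (-1.85 ± 0.21, adjusted p = 5.07e-05). Kcnd3 was called higher (1.52 ± 0.24, adjusted p = 0.00045).

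Of the Kcnq genes, some of which carry the M-current of neurons, 3 of 5 were called higher, against 24.8% of all genes. Among them was Kcnq3 at 1.01 ± 0.22 against 0.369 ± 0.16 RPKM (1.46 ± 0.26, adjusted p = 0.000792). Of the 8 Kcnh genes 3 were called higher, led by Kcnh7 (1.31 ± 0.27, adjusted p = 0.00203), against the same 24.8% of all genes. Kcnh2, the cardiac and neuronal ERG channel, had a difference near 0 (-0.03 ± 0.26, adjusted p = 0.925).

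Silent subunits form no channel alone and join Kcnb or related subunits. Of 9 tested, 6 were called higher (66.7%) and 0 lower (median 1.17), against 24.8% and 24.4% of all genes. Kcng4 had 6.40, 3.72, 3.21 and 5.05 RPKM in KO astrocytes and 5.01, 6.05, 5.22 and 6.92 in WT astrocytes. It had 1.49 and 0.686 in KO and 0.637 and 0.437 in WT flowthrough, with no overlap (log2 fold change 2.75 ± 0.27, adjusted p = 2.86e-05). Kcnv1 was at 0.714 ± 0.17 against 0.165 ± 0.15 RPKM (2.36 ± 0.34, adjusted p = 0.000254). Kcnf1 (1.39 ± 0.32, adjusted p = 0.00367) and Kcns3 (1.77 ± 0.46, adjusted p = 0.00815) were also higher, with overlapping libraries.

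The ion-activated genes respond to calcium or sodium or, for Kcnu1, to alkaline pH together with voltage. They were called higher in 7 of 8 cases (87.5%) and lower in 0 (median 1.19), against 24.8% and 24.4% of all genes. Kcnma1, the large-conductance BK channel, was at 4.63 ± 0.80 against 1.63 ± 0.75 RPKM (1.53 ± 0.24, adjusted p = 0.000426). Kcnn2, a small-conductance calcium-activated channel, had 1.63, 1.49, 1.54 and 1.91 RPKM in KO and 2.22, 2.30, 2.44 and 2.11 in WT astrocytes. It had 0.665 and 0.408 in KO and 0.710 and 0.414 in WT flowthrough, with no overlap between fractions (1.81 ± 0.19, adjusted p = 3.46e-05).

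Kcnn3 of the same family was at 0.679 ± 0.15 against 0.349 ± 0.093 RPKM (0.95 ± 0.23, adjusted p = 0.00467). Kcnt1, a sodium-activated channel, was at 1.35 ± 0.31 against 0.340 ± 0.15 RPKM (1.97 ± 0.25, adjusted p = 0.000104). Kcnu1, known from sperm, was at 0.362 ± 0.14 against 0.180 ± 0.057 RPKM (1.02 ± 0.36, adjusted p = 0.033) and missed the threshold with the mouse as a block (adjusted p = 0.163). Kcnn4, the intermediate-conductance channel of microglia, lymphocytes and vessels, was at 1.97 ± 1.4 against 3.98 ± 1.3 RPKM and was not called (-1.01 ± 0.51, adjusted p = 0.123). It passed with the mouse as a block (-1.33, adjusted p = 0.000883) and without KO astrocyte 73 (adjusted p = 0.0220), which was the highest astrocyte library at 5.02 RPKM.

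Auxiliary subunits (median 1.39) were called higher in 10 of 15 cases (66.7%) and lower in 2 (13.3%), against 24.8% and 24.4% of all genes. All 3 Kcnab genes, the cytoplasmic beta subunits of Kcna channels, and all 4 Kcnip genes, the calcium-binding partners of Kcnd channels, were called higher. Kcnab2 had 45.0, 34.9, 26.5 and 36.9 RPKM in KO astrocytes and 32.9, 50.4, 35.5 and 54.7 in WT astrocytes. In flowthrough it had 27.2 in KO 60, 9.92 in KO 132 and 11.2 and 10.6 in WT, and only KO 60 overlapped the astrocyte range (1.47 ± 0.27, adjusted p = 0.000973). Kcnab1, with the E-box windows shown above, was at 4.10 ± 0.88 against 1.57 ± 0.35 RPKM (1.39 ± 0.19, adjusted p = 0.000177).

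Kcnip3 had 35.5, 43.2, 15.8 and 34.1 RPKM in KO astrocytes and 33.3, 40.0, 30.3 and 46.8 in WT astrocytes. It had 16.5 and 10.3 in KO and 12.5 and 8.13 in WT flowthrough, and KO astrocyte 73 fell within that range (1.56 ± 0.27, adjusted p = 0.000701). Kcnip4 was at 5.12 ± 1.1 against 1.43 ± 0.53 RPKM with no overlap (1.86 ± 0.24, adjusted p = 0.000133).

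The Kcne genes encode single-span subunits, and they split. Kcne1l (KCNE5), on the X chromosome, had 51.5, 34.9, 19.1 and 37.9 RPKM in KO astrocytes and 18.1, 21.5, 13.2 and 26.7 in WT astrocytes. In flowthrough it had 17.2 and 7.14 in KO and 4.05 and 1.94 in WT, so the KO 60 value lay above the lowest astrocyte library (log2 fold change 2.14 ± 0.35, adjusted p = 0.000538). Kcne2, a partner of Kcnq channels in choroid plexus and other epithelia (chromosome 16, 92292389 to 92298129), had 14.2, 5.05, 25.9 and 12.2 RPKM in KO astrocytes and 13.0, 9.42, 12.1 and 7.33 in WT astrocytes.

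Flowthrough held 51.8 and 62.5 RPKM of Kcne2 in KO and 84.5 and 81.0 in WT, above every astrocyte library (-2.49 ± 0.31, adjusted p = 0.000103). KO 73 was again the highest astrocyte library and KO 62 the lowest. Kcne3 was at 0.0562 ± 0.041 against 0.757 ± 0.37 RPKM, with 2 to 14 counts in astrocytes and 43 to 112 in flowthrough (-3.71 ± 0.43, adjusted p = 6.48e-05).

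Among the BK beta subunits, Kcnmb3 and Kcnmb4 were called higher, the latter at 0.273 ± 0.054 against 0.105 ± 0.042 RPKM (1.39 ± 0.33, adjusted p = 0.00499), with 31.5% of its exon length shared with antisense genes. Kcnmb1, the smooth muscle BK subunit, was at 4.58 ± 2.9 against 6.72 ± 2.2 RPKM and was not called (-0.50 ± 0.48, adjusted p = 0.403). With the mouse as a block it passed (-0.65, adjusted p = 0.0117), as it did without KO 73 and WT 78 (adjusted p = 0.0165).

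**Figure D2:**
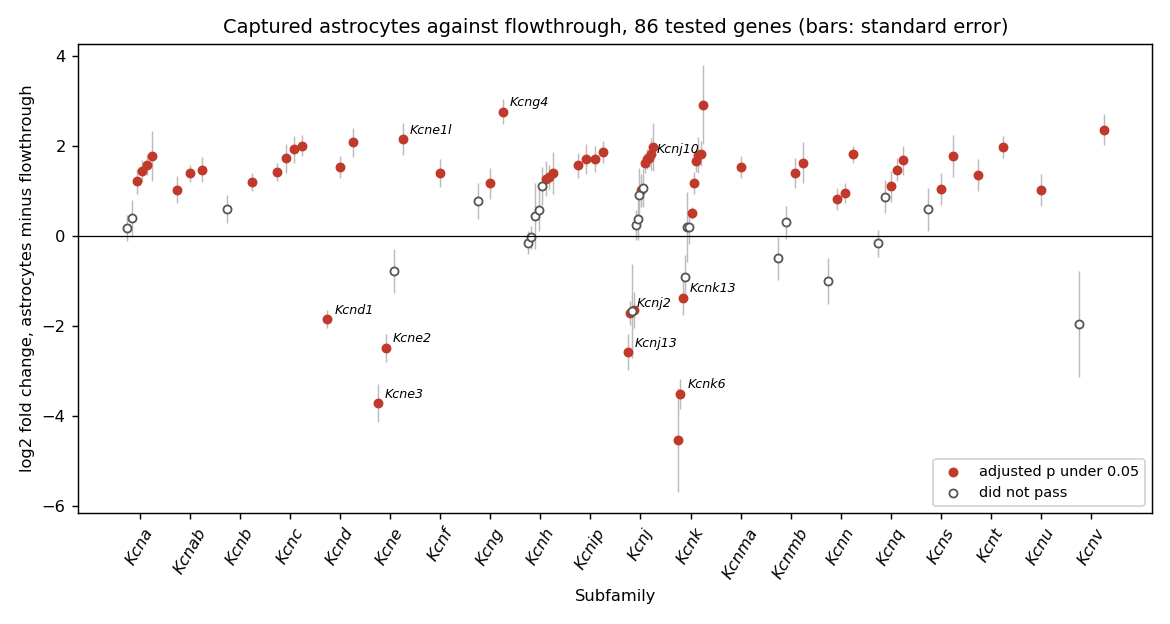
Log2 fold change, astrocytes minus flowthrough, with its standard error, for the 86 tested genes by subfamily; filled points passed an adjusted p under 0.05. Most subfamilies lie above 0, all 4 Kcnc and all 4 Kcnip genes passed as higher, and the 9 genes called lower belong to Kcnd, Kcne, Kcnj and Kcnk.

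Some of the genes called lower and the marker sums were set side by side per library. Among astrocyte libraries Kcnj13 was lowest in KO 62 (10.7 CPM, choroid plexus sum 1784) and highest in KO 73 (73.7 CPM, sum 9245), against 144 to 279 CPM in flowthrough (sum 19145 to 39921). Kcnk6 was at 0.754 CPM in WT 78, which had the lowest microglia sum (648), and at 3.58 CPM in KO 73, which had the highest (3095). Kcnk13 was also highest in KO 73 (11.1 CPM), but lowest in WT 57 (1.95 CPM), against 3.39 CPM in WT 78. Kcnd1 matched neither end, with its lowest astrocyte value in KO 60 (2.70 CPM) and its highest in KO 62 (6.75 CPM). These 12 points share their libraries and depth and are given as a description. The part of other cells in these values was not tested.

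**Figure D3:**
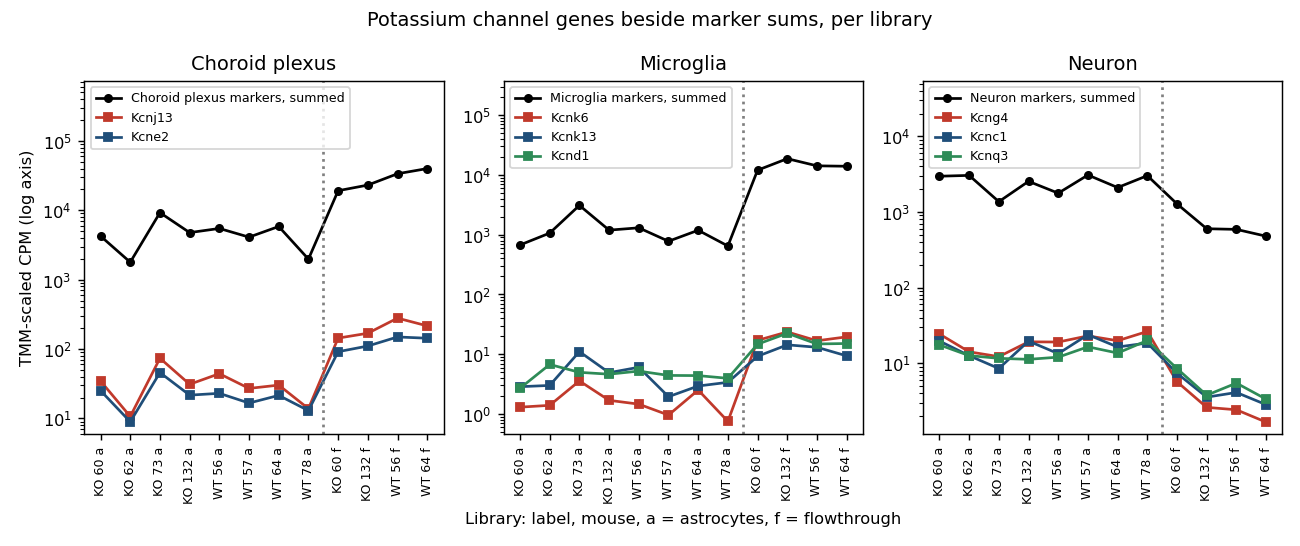
TMM-scaled CPM on a log axis in each of the 12 libraries for summed choroid plexus, microglia and neuron markers (black) and potassium channel genes beside them (colour); the dotted line parts astrocytes from flowthrough. Kcnj13 and Kcne2 peak in KO 73 among astrocyte libraries, as the choroid plexus sum does. Kcnk6 and Kcnk13 do so with the microglia sum, whereas Kcnd1 peaks in KO 62.

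Other selections of libraries gave other counts. Without KO 73 and WT 78, 66 genes were called (54 higher, 12 lower), 60 of them among the 61. Without KO flowthrough 60, 58 were called, and without KO flowthrough 132, 49, all among the 61. With the mouse as a block 63 were called (49 higher, 14 lower), 57 of them among the 61. Shares of all genes called in these fits are not set beside the counts. Whether the changes are particular to potassium channel genes was therefore not tested. Within the fit of all 12 libraries, the contrast of the KO groups called 33 (38.4%, against 23.3% of all genes). That of the WT groups called 51 (59.3%, against 37.9%). The median log2 fold change was 0.91 in KO and 1.56 in WT. The difference between these was tested gene by gene as an interaction, given below.

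Genes that work with these channels but fall outside the naming rule were read from a list of 16 partners. Of these, 10 were called higher in astrocytes and 3 lower (Abcc9, Lrrc38 and Lrrc52; median over the list 1.32), against 24.8% and 24.4% of all genes. Dpp6 and Dpp10, which bind Kcnd channels, were higher by 1.75 ± 0.27 (adjusted p = 0.000397) and 1.80 ± 0.27 (adjusted p = 0.000281) on the log2 scale. All 4 Hcn genes, hyperpolarisation-activated cation channels, were called higher. Of 20 genes of potassium and water handling, 11 were called higher and 3 lower (median 0.89), beside the same shares of all genes. Atp1b2, a sodium pump subunit of astrocytes, was higher (1.98 ± 0.19, adjusted p = 2.29e-05). So were the endfoot water channel Aqp4 (1.97 ± 0.42, adjusted p = 0.00259), the astrocyte connexins Gja1 (1.80 ± 0.18, adjusted p = 2.63e-05) and Gjb6 (1.89 ± 0.17, adjusted p = 1.7e-05), and the bicarbonate cotransporter Slc4a4 (2.16 ± 0.26, adjusted p = 7.19e-05). The cotransporter genes split: Slc12a5, the neuronal chloride extruder, was higher (1.82 ± 0.30, adjusted p = 0.000511), and Slc12a2 (-0.80 ± 0.21, adjusted p = 0.00881) and Slc12a7 (-1.15 ± 0.37, adjusted p = 0.0241) were lower.

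The second comparison asked whether astrocyte libraries of the 2 labels differ in these genes. By edgeR's quasi-likelihood test, 0 of 81 tested potassium channel genes were called, against 0.232% of all 18527 genes (0.146% higher and 0.0864% lower in KO). At an unadjusted p under 0.05 there were 6 (7.41%), against 5.37% of all genes, and DESeq2 and limma-voom also called 0, with 6 and 5 at that level. The lowest adjusted p was 0.473. The median log2 fold change, KO minus WT, was -0.09, against 0.00 over all genes. In 70 of 81 genes the estimate was below 0.5 in size and in 2 it was at least 1. The KO and WT libraries did not overlap in 2 genes (2.47%), against 4.08% of all genes.

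Kcnj10 was at 266 ± 46 CPM in KO and 248 ± 28 CPM in WT astrocytes (SD, n = 4 each), an estimate of 0.11 ± 0.15 (adjusted p = 0.995). Kcnj16 was at 153 ± 36 and 186 ± 23 CPM (-0.27 ± 0.18, adjusted p = 0.995). Their libraries overlapped. By class the medians were -0.21 for voltage-gated, -0.14 for two-pore, -0.09 for ion-activated, -0.06 for silent, -0.04 for auxiliary and -0.03 for inward rectifier genes.

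Of the 8 genes with the smallest p, none of which passed, Kcnn2 and Kcnt1 were the 2 without overlap. Kcnn2 had 11.9, 10.9, 11.3 and 14.0 CPM in KO and 16.2, 16.8, 17.9 and 15.5 in WT astrocytes (log2 fold change -0.46 ± 0.13, adjusted p = 0.473). Kcnt1 had 8.03, 9.50, 6.18 and 9.44 CPM in KO and 12.6, 13.0, 10.9 and 11.7 in WT astrocytes (-0.53 ± 0.17, adjusted p = 0.586). All KO libraries were below all WT libraries in both genes, in which flowthrough showed overlap.

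Kcne1l had 79.4, 53.9, 29.4 and 58.5 CPM in KO and 27.9, 33.2, 20.3 and 41.1 in WT astrocytes (0.86 ± 0.30, adjusted p = 0.683). Only KO 73, which carries the Xist type, fell within the WT range, and WT 78, the other such library, was the highest of the WT libraries. With a covariate for other cells (the mean of the neuron, endothelial, microglia and oligodendrocyte lists), Kcne1l was called (1.39, adjusted p = 0.000288), in a fit that called 143 genes in all against 43 without it. In KO astrocytes all 10 oligodendrocyte and all 12 microglia markers had higher estimates than in WT (medians 0.78 and 0.54; none called), with oligodendrocyte sums of 30230, 38503, 24534 and 26105 CPM in KO against 20396 to 26477 in WT. The microglia sum was 3095 CPM in KO 73 and 674 to 1193 in the other KO libraries, within the WT range of 648 to 1304. Without KO 73, 4 of 12 microglia markers had higher estimates in KO (median -0.12), and 10 of 10 oligodendrocyte markers did (median 0.32); this selection was made after seeing the data. The part of these cells in the result was not tested.

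Kcnk1 had 68.9, 59.6, 67.3 and 67.0 CPM in KO and 90.6, 79.3, 67.4 and 95.8 in WT astrocytes (-0.34 ± 0.13, adjusted p = 0.815), and the overlap came from KO 60 and WT 64. Kcnmb3 had 28, 54, 106 and 52 counts in KO and 36, 18, 26 and 17 in WT astrocytes (1.16 ± 0.40, adjusted p = 0.675). Kcnj14 was at 3.37 ± 1.8 against 1.68 ± 0.41 CPM (1.003 ± 0.41, adjusted p = 0.852). Kcnd3 (-0.35 ± 0.19, adjusted p = 0.972) and Kcnh3 (-0.63 ± 0.34, adjusted p = 0.972) had lower estimates in KO. Of the partner and handling lists, 0 of 14 and 0 of 20 tested genes were called.

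**Figure D4:**
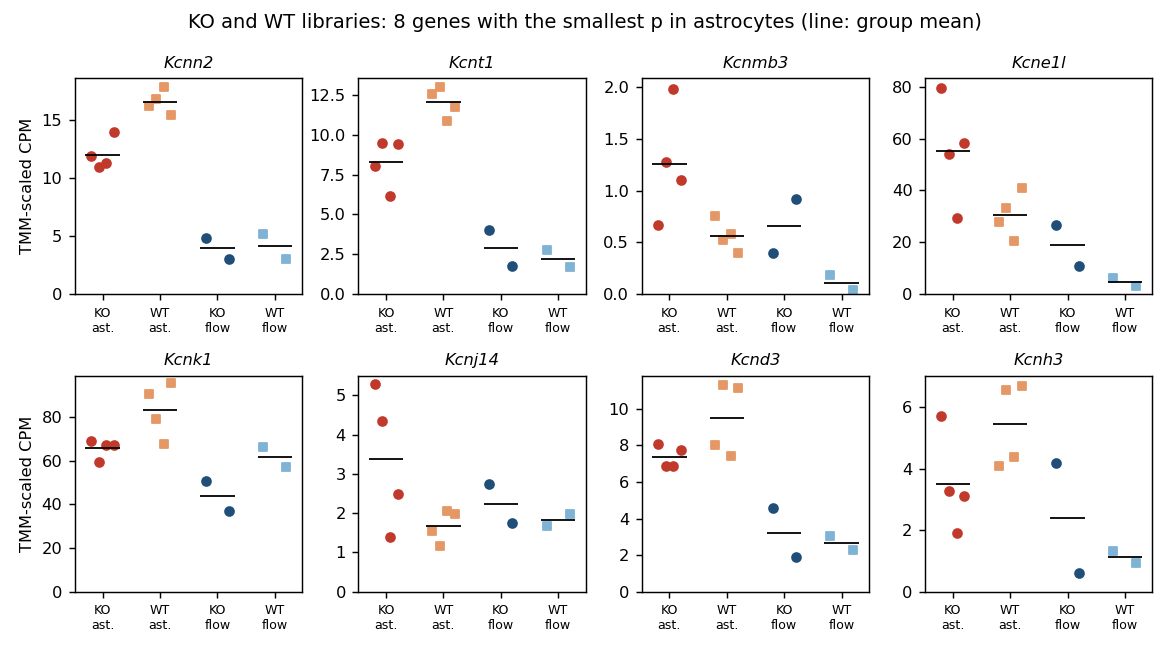
TMM-scaled CPM per library in the 4 groups for the 8 genes with the smallest p in KO against WT astrocytes; the line is the group mean. Kcnn2 and Kcnt1 lie lower in all 4 KO than in all 4 WT astrocyte libraries, and none of the 8 passed the adjusted threshold.

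The third comparison set KO against WT flowthrough, with 2 libraries each. Of 86 tested genes 0 were called by edgeR, against 0.00476% of all genes, and 14 (16.3%) had an unadjusted p under 0.05, against 4.63% of all genes; DESeq2 and limma-voom called 0, with 14 and 4 at that level. All adjusted p values were 1. The median log2 fold change was 0.38, against 0.04 over all genes, and 62 of 86 estimates were above 0. The median was 1.13 for the 9 silent subunits, of which 5 were among the 14, and 0.49 for voltage-gated genes. The libraries of the labels did not overlap in 27 genes (31.4%), against 33.6% of all genes.

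With 1 library left out, an arm of 1 library remains, and its spread is taken from the other groups. Counts at an unadjusted p under 0.05 from such fits are therefore not given. The estimate for Kcnj16, 0.37 with all libraries, was -0.16 without KO flowthrough 60 and 0.77 without KO flowthrough 132. KO flowthrough 60 also held more neuron marker RNA (1279 CPM against 479 to 601) and more oligodendrocyte marker RNA (29833 against 12436 to 15374 CPM), beside the astrocyte sum given above. All 11 neuron markers and 13 of 14 astrocyte markers had higher estimates in KO flowthrough (medians 0.82 and 0.50; none called). All 9 endothelial markers also had higher estimates there (median 0.63), and all 5 choroid plexus and all 4 ependymal markers lower ones (medians -0.80 and -0.95), with none called. Kcnj13 (-0.66 ± 0.67) and Kcne2 (-0.53 ± 0.53), the most abundant potassium channel genes in flowthrough, were lower in both KO than in both WT libraries and were not called (adjusted p = 1 for each). The part of other cells in these results was not tested.

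The 5 genes with the smallest p were higher in estimate in KO flowthrough. Kcne1l had 26.6 and 11.0 CPM in KO and 6.25 and 2.99 in WT (2.02), and Kcnmb3 had 21 and 51 counts in KO and 10 and 2 in WT (2.54). Kcnv1 had 1.71 and 0.576 CPM in KO and 0.398 and 0.277 in WT (1.75). Kcnj10 had 133 and 73.8 CPM in KO and 65.8 and 51.1 in WT (0.83), and Kcng4 had 5.69 and 2.61 in KO and 2.43 and 1.66 in WT (1.02). Both KO libraries were above both WT libraries in each of the 5, and KO 60 was the higher KO library in all but Kcnmb3. Since the 5 were chosen by p in the same comparison, their separation follows in part from the choice. The labels were also apart in 33.6% of all genes, in either direction.

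**Figure D5:**
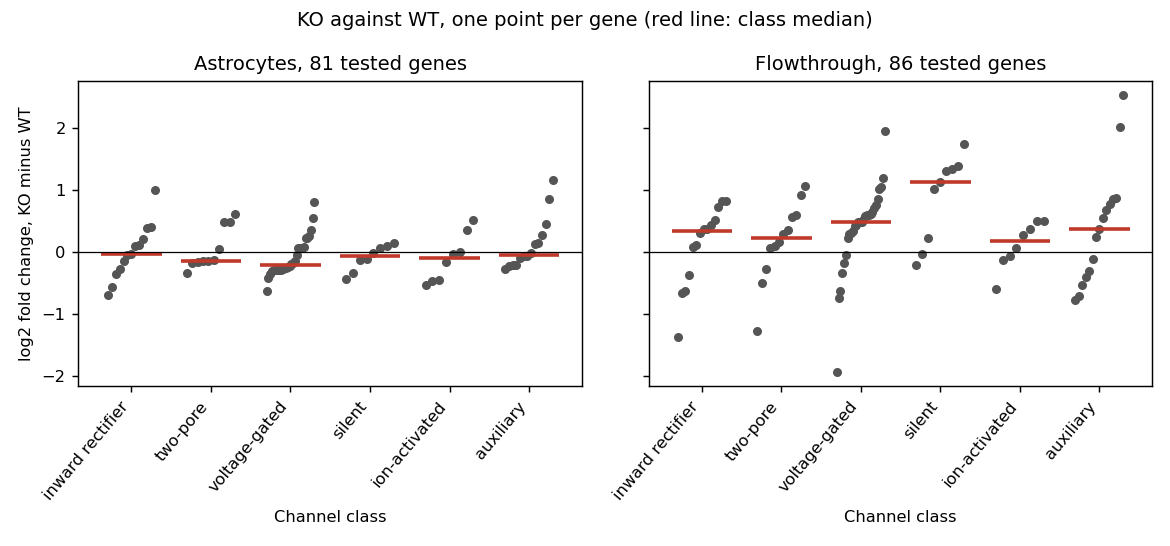
Log2 fold change, KO minus WT, for each tested gene by channel class in astrocytes and in flowthrough; the red line is the class median. In astrocytes the class medians lie between -0.21 and -0.03, and in flowthrough between 0.17 and 1.13, and no gene passed in either.

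Whether the KO and WT difference itself differed between fractions was tested as the interaction of label and fraction. By edgeR 0 of 86 potassium channel genes were called, as was 0% of all genes, and 6 had an unadjusted p under 0.05 (6.98%), against 3.94% of all genes. DESeq2 called 0 with 7 at that level and limma-voom 0 with 3. The lowest adjusted p was 0.934. Among the 5 genes with the smallest p were Kcnv1 (-1.88 ± 0.63), Kcng4 (-1.36 ± 0.48) and Kcnv2. Kcnv2 had 0 counts in all 4 KO astrocyte libraries, and 13, 14, 9 and 0 in WT, so its fitted value has no bound. A flowthrough library left out again leaves 1 library in that arm, so counts at an unadjusted p from such fits are not given. Over all 21 alternatives the estimate ran from -2.47 to -0.884 for Kcnv1 and from -1.81 to -0.679 for Kcng4.

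Of the 93 genes, 7 did not reach the filter in the 12-library fit: Kcna7, Kcna10, Kcne1, Kcng3, Kcnj1, Kcnk15 and Kcnk16. The largest count of Kcnk16 in any library was 2, below the floor of 3 counts, which equals 0.0582 to 0.0775 CPM and covers counting error only. The others reached at most 5 to 12 counts in a library. Potassium channel genes that share at least 5% of their exon length with another gene, so that reads may be split, were Kcnj13, Kcnj3, Kcna6, Kcnmb4, Kcnip4 and Kcnab3.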

How the data were processed

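The authors deposited 1 table per library with exon positions, summed exon length and, per the file headers, a raw count, a CPM and an RPKM for each gene. All deposited count values are whole. Recomputing showed the deposited CPM to be the count scaled to the library total, and the deposited RPKM to be that CPM divided by the exon length in kilobases. The submitters' processing notes name the GRCm38 build and, without their roles, featureCounts 1.4.6-p5, Subread, STAR 2.5.1a and bcl2fastq. Not given in the sources used here: strand setting, annotation release and treatment of multi-mapping reads. Values of overlapping genes are therefore uncertain. SMARTer amplification without named molecular identifiers means that floors cover counting error only.

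Gene identifiers were matched to symbols in the reference name table (40254 of 41388), and the potassium channel genes were taken from them by the naming rule. Their members and the gene lists were chosen with earlier results of these data known. Counts were tested across all genes with edgeR 4.0.16 in R 4.3.3 (glmQLFit, glmQLFTest, two-sided; TMM factors; filterByExpr; Benjamini-Hochberg; adjusted p under 0.05 called). The astrocyte comparison of the labels used 8 libraries (18527 genes, 6 residual degrees of freedom), and the others all 12, fitted as 4 group means (8 residual degrees of freedom, 20997 genes). Standard errors are the log2 fold change over the square root of F. Levels are TMM-scaled over the 12 libraries. The procedure was checked on simulated counts. Nothing in the labels beyond mouse numbers separates the animals, and p-values measure the spread between these libraries.

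Genes named are channels known in astrocytes, vascular cells, microglia or neurons, the gene with the smallest p in each direction per subfamily, the 10 most abundant per fraction, and those with the smallest p in each KO against WT comparison and the interaction. Other genes named in a clause (Kcnj9, Kcnj3, Kcnj11, Kcnj12 and the low-count Kcnk9 and Kcnk18) were added after their values were seen. Some genes that the rule names are not reported here. Alternatives were RLE or library size scaling, 2 other filters, DESeq2 1.42.0, limma-voom (limma 3.58.1), the mouse as a block, a covariate for other cells, other selections of libraries and each library left out. The mouse number pairs the fractions of 4 mice, since both libraries come from 1 animal. The deviations of the paired libraries from their group means were correlated over all genes that passed the filter on low counts. The correlations, not limited to the potassium channel genes, were -0.0988 (mouse 132), 0.118 (56), 0.564 (60) and 0.381 (64).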

Additional observations from a re-analysis of the deposited data

Results flagged for a closer look

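In groups of 4 astrocyte libraries, 3 of 94 gene and group combinations held a library far from the other 3, where chance gives about 1 in 20 (5%). Kcnh7, an ERG-family channel, was at 7.22 CPM in KO astrocyte 60 against 5.04 to 5.23 in the other KO astrocyte libraries. Kcnmb1, the smooth muscle BK subunit, was at 41.1 CPM in KO astrocyte 73 against 9.61 to 14.9 in the others, in the library with the highest microglia, choroid plexus and ependymal marker sums (ependymal 629 CPM). Among astrocyte libraries WT 64 was second in both (Kcnmb1 31.3 CPM, ependymal sum 440) and WT 78 lowest in both (3.46 and 35.2 CPM), and the part of ependymal cells in this value was not tested. Kcnmb4, a neuronal BK subunit, was at 1.34 CPM in WT astrocyte 78 against 0.815 to 0.878 in the others.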

How the results depend on the processing

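Of 86 genes, 61 were called between astrocytes and flowthrough, with 61 under RLE factors, 58 under library size alone, 61 without a filter, 59 at a CPM of at least 1, 64 by DESeq2 and 62 by limma-voom. Leaving out 1 library at a time gave 49 (without KO flowthrough 132) to 65. The 8 libraries of the 4 paired mice gave 55 without and 63 with the replicate block, and of the latter 57 were among the 61. The block ended the calls of Kcnj12, Kcns2, Kcnt2 and Kcnu1 (adjusted p = 0.0747 to 0.163) and added Kcne4, Kcnh1, Kcnk5, Kcnmb1 and Kcnn4 (adjusted p = 0.000883 to 0.0235). The contrast of the KO groups within the 12-library fit, which takes 6 of the 12 libraries, called 33. Kcnu1 also missed the threshold under library size scaling (adjusted p = 0.0710) and when any of 5 single libraries was left out (adjusted p = 0.0522 to 0.136). The median log2 fold change was 1.35 over genes with a mean of at least 1 CPM, and Kcnj10 was at 45.7 in deposited RPKM.

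KO against WT astrocytes gave 0 calls throughout, leaving out each library included, except 1 (Kcne1l) with the covariate for other cells. KO against WT flowthrough and the interaction gave 0 under each alternative run, the replicate block of the interaction included. Signs changed for values near 0. Kcnh2 between fractions was 0.067 without KO 73 and WT 78, 0.061 in the 4 paired mice and 0.032 with the replicate block. It was 0.090 in the contrast of the WT groups, and -0.13 to 0.062 with 1 library left out. Kcnj16 between labels was 0.016 in astrocytes with the covariate, and in flowthrough -0.16 (without KO 60) to 0.77 (without KO 132). The cause was not tested. The 2 flowthrough libraries per label limit the precision there, and a count of 3 (0.0582 to 0.0775 CPM) is the floor of each library.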
